A study of Mus musculus with 12 samples.

Results

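The fibulins and the SPARC family are secreted glycoproteins of the extracellular matrix, and their 9 genes Fbln1, Fbln2, Fbln5, Efemp1, Efemp2, Sparc, Sparcl1, Smoc1 and Smoc2 were followed in mouse cerebellar cortex on 3 diets. The 9 genes, 5 fibulins and 4 of the SPARC family, were taken by their mouse symbols from a table of 54752 genes, and each symbol matched 1 gene. They were selected on family membership after the increase of Fbln5 on dietary restriction in these same mice was known. The difference of restricted mice from freely fed mice, and from mice on a ketogenic diet, is therefore a description for all 9 genes and carries no test. The 12 mice were male WT F1 hybrid C57BL6J/FVB animals aged 12 weeks, with 4 mice per diet. Mice had free access to food (ad libitum, AL), received restricted portions (dietary restriction, DR) or were fed a ketogenic diet (KD). The paper does not describe the KD mice, and the composition and duration of that diet are not given in the sources used here. The DR mice had not received their last daily meal, AL and DR mice were killed early in the dark period, and AL and DR mice were chosen by RNA quality from a larger number. The dissected piece held folia of hemisphere, paravermis and vermis without the cerebellar nuclei, so each library mixes neurons, glia, vessels and any attached meninges. Poly(A) RNA was sequenced from both ends, and between 31712084 and 40798644 reads per library (median 36674269) were counted on genes. All 18 pairs of mice on 1 diet differed by more than counting error (chi-square per gene of 4.95 to 11.6), so no library was a repeat of another. Values are CPM, the reads of a gene relative to all counted reads of its library in units of 1000000 reads, after scaling by edgeR's TMM factors, which lay between 0.991 and 1.02.

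Fibulins carry strings of calcium-binding EGF-like modules and sit in elastic fibres, microfibrils and basement membranes. Fibulin-5 (Fbln5) tethers tropoelastin to microfibrils and to cell-surface integrins, fibulin-4 (Efemp2) brings lysyl oxidase to the forming elastic fibre, and fibulin-1 and fibulin-2 (Fbln1, Fbln2) bind nidogen, fibronectin and proteoglycans of basement membranes and vessel walls. SPARC (Sparc, osteonectin) binds collagen and modulates contacts between cells and matrix, its relative hevin (Sparcl1) is released by astrocytes and promotes the formation of excitatory synapses, an activity that SPARC antagonizes, and SMOC1 and SMOC2 are related basement membrane proteins, of which SMOC1 inhibits BMP signalling.

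Promoter sequences are shown for Fbln5 and Sparc because these were the 2 members whose levels moved together with diet. They are RefSeq windows on GRCm38.p6, 250 bases before to 50 bases after an annotated start of transcription, and 6 of the 9 members had an entry. Capitals mark matches to 6 motifs that were chosen after the expression values were known and searched on both strands: the TATA box (TATAAA), the CCAAT box (CCAAT), the GC box (GGGCGG), the E-box (CACGTG), the AP-1 motif (TGANTCA) and the glucocorticoid receptor core (TGTTCT). The first window of Fbln5 is chr12:101819070-101819369 and the second is chr12:101818435-101818734, both on the minus strand. The window of Sparc is chr11:55420031-55420330, also on the minus strand.
Fbln5, first start: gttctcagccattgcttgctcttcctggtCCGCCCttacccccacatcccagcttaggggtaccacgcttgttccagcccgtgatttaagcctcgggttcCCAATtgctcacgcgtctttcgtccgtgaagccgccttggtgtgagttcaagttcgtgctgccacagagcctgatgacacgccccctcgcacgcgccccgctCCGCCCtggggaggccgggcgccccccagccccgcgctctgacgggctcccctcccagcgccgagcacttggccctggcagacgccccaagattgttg
Fbln5, second start: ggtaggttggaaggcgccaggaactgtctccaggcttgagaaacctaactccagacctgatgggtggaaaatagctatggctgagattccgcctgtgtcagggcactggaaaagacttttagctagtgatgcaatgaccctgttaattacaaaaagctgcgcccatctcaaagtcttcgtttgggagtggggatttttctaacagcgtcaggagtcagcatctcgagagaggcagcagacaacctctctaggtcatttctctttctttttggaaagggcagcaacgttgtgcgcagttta
Sparc: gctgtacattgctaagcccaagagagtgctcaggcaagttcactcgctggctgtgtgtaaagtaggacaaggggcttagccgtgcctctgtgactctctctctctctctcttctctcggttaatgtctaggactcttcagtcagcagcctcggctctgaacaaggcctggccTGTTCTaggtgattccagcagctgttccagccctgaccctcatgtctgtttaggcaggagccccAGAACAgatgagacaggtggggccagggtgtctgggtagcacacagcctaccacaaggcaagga

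The first Fbln5 window was 65.7% G and C and held 1 CCAAT box, 150 to 146 bases before the start, and 2 GC boxes, 221 to 216 and 48 to 43 bases before it. The second Fbln5 window was 48.7% G and C and held none of the 6 motifs. The Sparc window was 55.3% G and C and held 2 glucocorticoid receptor cores, 78 to 73 and 14 to 9 bases before the start, and no other motif of the 6. Fbln5 and Sparc thus had no motif in common in these windows. Among 32851 RefSeq promoter windows of the same length, 37.4% held a CCAAT box, 35.7% a GC box, 19.0% a glucocorticoid receptor core, 13.6% a TATA box, 7.81% the AP-1 motif and 7.15% the E-box. A match in such short motifs is a description of the letters and not a binding site. The starts of transcription in RefSeq need not be those used in cerebellum, and the first Fbln5 start lies outside the span of the gene in the deposited table.

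Of the 9 genes, Fbln5 and Sparc were higher on DR than in both other groups of mice, without overlap, and the other 7 were not. Over all genes tested, 10.9% did not overlap between DR and AL and 11.8% between DR and KD. Fbln5, gene identifier ENSMUSG00000021186.9, lies on the minus strand of chromosome 12 between 101746565 and 101819055 (GRCm38.p6). It was at 7.54, 6.42, 5.08 and 6.55 CPM in the 4 AL mice, at 15.6, 14.8, 19.0 and 14.3 CPM in the 4 DR mice and at 5.76, 6.93, 5.71 and 8.64 CPM in the 4 KD mice. Each DR mouse lay above every AL and every KD mouse, the lowest DR value being 1.90 times the highest AL value and 1.66 times the highest KD value, while AL and KD mice overlapped. Mean levels were 6.40 ± 1.01 CPM on AL, 15.9 ± 2.11 CPM on DR and 6.76 ± 1.37 CPM on KD (SD, n = 4 each), from between 177 and 661 reads per library. In bulk tissue, more cells of a type that makes Fbln5 and more Fbln5 RNA per cell cannot be told apart.

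Sparc (ENSMUSG00000018593.13, chromosome 11, 55394500 to 55423183, minus strand) was at 792, 722, 642 and 716 CPM in AL mice, at 970.2, 883, 965 and 1006 CPM in DR mice and at 729.7, 783, 723 and 815 CPM in KD mice. All 4 DR mice again exceeded all other mice, by a narrower margin than for Fbln5: the lowest DR value was 1.11 times the highest AL value and 1.08 times the highest KD value. Mean levels were 718 ± 61.4 CPM on AL, 956 ± 52.0 CPM on DR and 763 ± 44.2 CPM on KD (SD, n = 4 each). Sparc rested on 22394 to 38017 reads per library, so counting error was small beside the spread between mice.

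**Figure D1:**
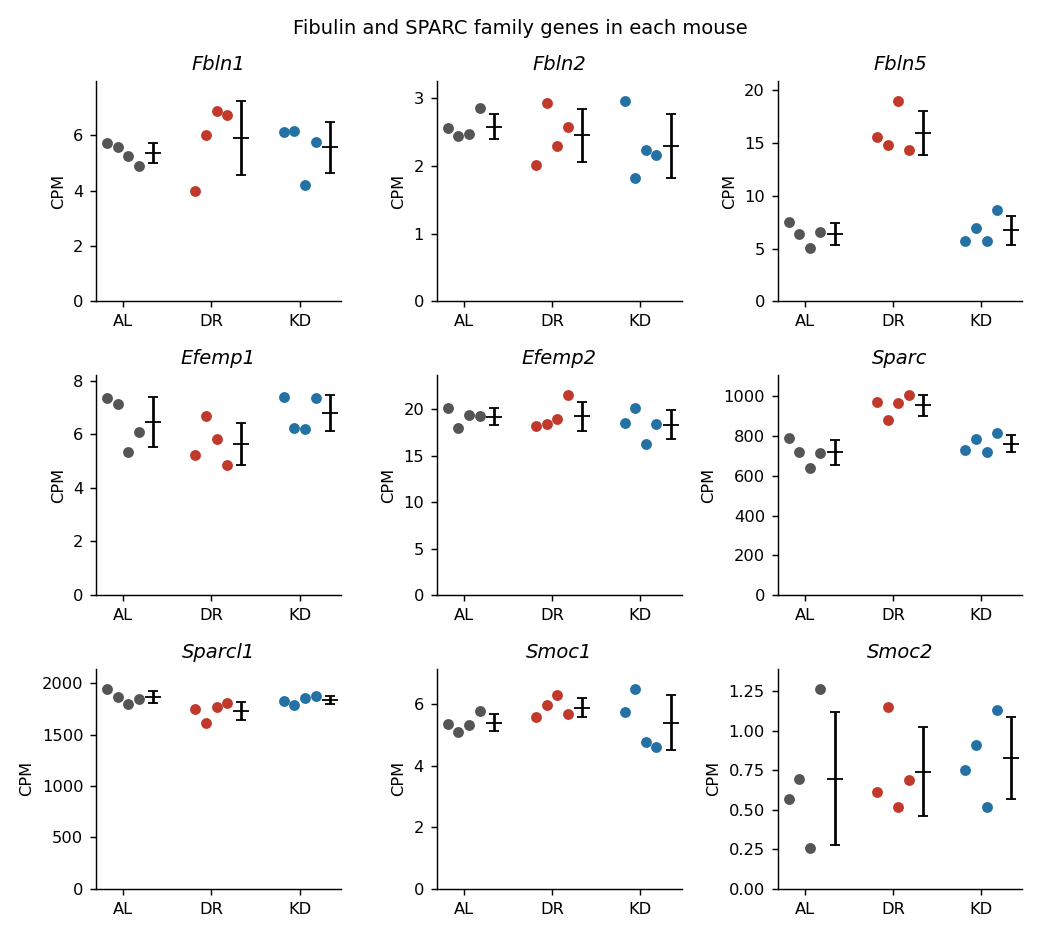
Level of each of the 9 genes in CPM (vertical axis, from 0) in the 4 AL, 4 DR and 4 KD mice. Each point is a mouse, and the bar to its right gives the mean with 1 SD. For Fbln5 and Sparc all DR points lie above all AL and KD points, and for the other 7 genes the diets overlap. Of all genes tested, 10.9% do not overlap between DR and AL and 11.8% between DR and KD.

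Sparcl1 (chromosome 5, 104079111 to 104113733), the gene of hevin, was slightly lower in most DR mice. It was at 1946, 1864, 1799 and 1849.9 CPM on AL, at 1744, 1609, 1765 and 1808 CPM on DR and at 1821, 1787, 1850.1 and 1875 CPM on KD. Of the 4 DR mice, 3 lay below all AL and all KD mice, and DR replicate 4 lay within both ranges. The mean was 1865 ± 60.6 CPM on AL, 1731 ± 85.9 CPM on DR and 1833 ± 38.0 CPM on KD (SD, n = 4 each).

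The ratio of Sparc to Sparcl1, both per kilobase of gene model, combined the difference in Sparc with the small opposite one in Sparcl1. It was 0.298 ± 0.0161 on AL (0.277 to 0.316), 0.428 ± 0.00393 on DR (0.424 to 0.431) and 0.323 ± 0.0186 on KD (0.303 to 0.340; SD, n = 4 each). The 4 DR mice lay closer to each other in this ratio than in Sparc itself, where their SD was 5.44% of the mean. Because both genes were read in the same library, a factor that scales a whole library drops out of the ratio.

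In the other fibulins of elastic fibres the diets overlapped. Efemp2 (chromosome 19, 5473973 to 5481853) was at 19.2 ± 0.897 CPM on AL, 19.2 ± 1.56 CPM on DR and 18.3 ± 1.60 CPM on KD (SD, n = 4 each), with all 12 mice between 16.3 and 21.5 CPM. Efemp1 (chromosome 11, 28853204 to 28926743), which encodes fibulin-3, a ligand of the metalloproteinase inhibitor TIMP3, was at 7.34, 7.12, 5.33 and 6.08 CPM on AL, at 5.23, 6.67, 5.80 and 4.83 CPM on DR and at 7.40, 6.22, 6.21 and 7.36 CPM on KD. Its DR values lay low, with 3 of 4 DR mice below all KD mice, but they overlapped with AL. Per kilobase, Fbln5 made up 8.13 ± 0.871% of the sum of Fbln5, Efemp1 and Efemp2 on AL, 18.7 ± 2.27% on DR and 8.68 ± 1.40% on KD (SD, n = 4 each).

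In the basement membrane fibulins, too, the mice of 1 diet spread over the ranges of the others. Fbln1 (chromosome 15, 85205949 to 85286535) was at 5.71, 5.57, 5.25 and 4.88 CPM on AL, at 3.98, 6.02, 6.87 and 6.73 CPM on DR and at 6.13, 6.16, 4.21 and 5.76 CPM on KD. DR replicate 1 held the lowest value of all 12 mice and the other DR mice exceeded every AL mouse, so that DR spread more widely (SD 22.6% of the mean) than AL (6.96%). The summed level of 13 markers of meningeal and vascular fibroblasts was also lowest in DR replicate 1, at 69.6 CPM. The next lowest sum, 76.2 CPM, was that of AL replicate 3, where Fbln1 was at 5.25 CPM. A link between Fbln1 and this sum was not tested. Fbln2 (chromosome 6, 91212455 to 91272540) lay between 1.83 and 2.96 CPM in the 12 mice, with means of 2.58 ± 0.185 on AL, 2.46 ± 0.391 on DR and 2.30 ± 0.477 CPM on KD (SD, n = 4 each).

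The SMOC genes were low. Smoc1 (chromosome 12, 81026808 to 81186414) averaged 5.39 ± 0.273 CPM on AL, 5.89 ± 0.319 CPM on DR and 5.40 ± 0.890 CPM on KD (SD, n = 4 each), and KD replicates 1 and 2, at 5.74 and 6.50 CPM, stood above KD replicates 3 and 4, at 4.76 and 4.60 CPM. Smoc2 (chromosome 17, 14279506 to 14404790) was read 9 to 44 times per library, at 0.258 to 1.27 CPM, with SDs between 31.2% and 60.6% of the diet means. The 95% interval of DR against AL for Smoc2 ran from a fold of 0.561 to 2.05. The exons of the 9 genes shared no base with those of another gene in the annotation (0.0% each), and the longest run of identical bases between transcripts of any 2 of them was 33 bases, between Smoc1 and Smoc2, so reads are unlikely to have been divided between members.

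To compare the genes with each other, CPM were divided by the length of the gene model in kilobases. By this measure, averaged over the 12 mice, the order was Sparcl1 (616 CPM per kilobase), Sparc (214), Efemp2 (7.15), Efemp1 (3.09), Smoc1 (1.59), Fbln5 (1.40), Fbln1 (1.28), Fbln2 (0.384) and Smoc2 (0.109). Sparcl1 exceeded Sparc 2.87-fold and Sparc exceeded Efemp2 30.0-fold, in 12 of 12 libraries each. Efemp2 exceeded Efemp1, Efemp1 exceeded Smoc1, Fbln1 exceeded Fbln2 and Fbln2 exceeded Smoc2 in all 12 libraries as well. Only the places of Smoc1, Fbln5 and Fbln1 were not settled, since their ranges overlapped. In the 4 DR mice Fbln5 was the highest of these 3 genes and stood 5th among the 9, and in the 4 AL and the 4 KD mice it was the lowest of them and stood 7th. The ratio of Fbln5 to Fbln1 per kilobase was 0.756 ± 0.110 on AL, 1.78 ± 0.493 on DR and 0.778 ± 0.156 on KD (SD, n = 4 each). Of the summed level per kilobase of the 9 genes, Sparcl1 made up 75.7% on AL, 68.7% on DR and 74.3% on KD, Sparc 22.6%, 29.4% and 24.0%, and each of the other 7 genes at most 0.921% in any mouse.

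**Figure D2:**
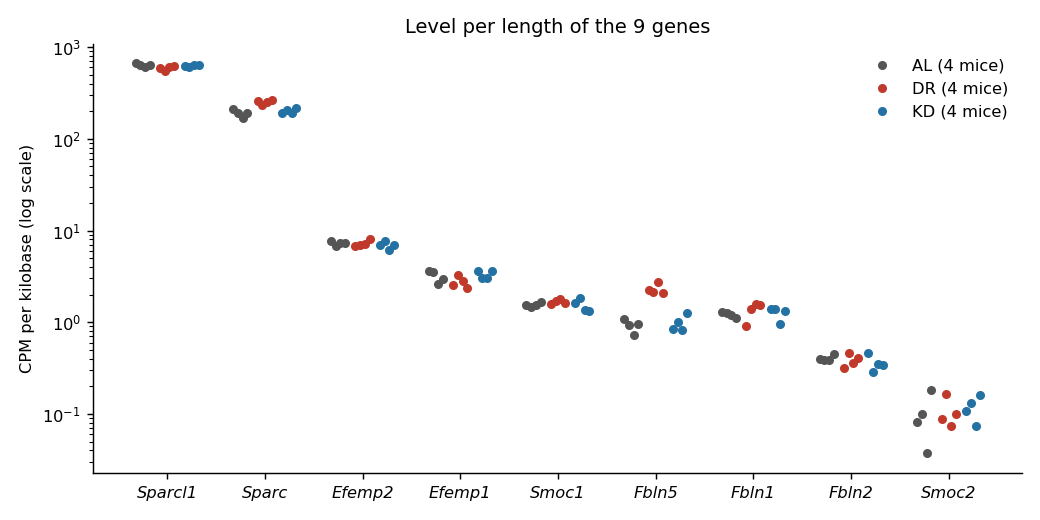
Level per length of the 9 genes, in CPM per kilobase of gene model on a log scale, in order of the mean over the 12 mice. Each point is a mouse, with AL in grey, DR in red and KD in blue. Sparcl1 and Sparc lie far above the other 7 genes, and Fbln5, Smoc1 and Fbln1 change places between DR and AL.

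The first comparison asked how DR changed transcript levels relative to AL. It was fitted over 19052 genes with edgeR's quasi-likelihood test, and a gene was called at a Benjamini-Hochberg adjusted p under 0.05, which 583 genes (3.06%) were. All 9 members passed the filter on low counts, and 2 of the 9, Fbln5 and Sparc, were among the called genes. The diets did not overlap in 2084 of the 19052 genes (10.9%), and in the same 2 of the 9 members. These counts follow in part from the choice of the family and are not read further. The log2 fold change was 1.31 (SE 0.12, 95% interval 1.03 to 1.60) for Fbln5, a 2.49-fold higher level, and 0.41 (SE 0.06, 0.26 to 0.56) for Sparc, a 1.33-fold higher level. By fold, Fbln5 stood 10th and Sparc 108th among the 252 called increases. Sparcl1 was at -0.11 (SE 0.05, -0.23 to 0.01) and Efemp1 at -0.21 (SE 0.13, -0.51 to 0.10), and the other 5 genes lay between -0.07 and 0.13. The median over the 9 genes was 0.10, beside 0.00 over all genes tested, and 6 of the 9 were above 0.

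KD was next set against AL. This comparison shares its AL mice with the one from which Fbln5 was known, so its tests are not independent of the choice. No gene of 19036 was called in edgeR's test (0%; 928 genes had an unadjusted p under 0.05, and 10 were called with DESeq2), and none of the 9 members was called or had an unadjusted p under 0.05. The diets did not overlap in 562 genes (2.95%) and in none of the 9 members. Fbln5 differed by a log2 fold change of 0.08 (SE 0.14, 95% interval -0.26 to 0.42, adjusted p = 0.994 in edgeR's test) and Sparc by 0.09 (SE 0.06, -0.05 to 0.23, adjusted p = 0.994). The intervals leave room for a change in Fbln5 of up to 1.34-fold and in Sparc of up to 1.17-fold on KD. The other members lay between -0.16 for Fbln2 and 0.28 for Smoc2, with intervals that all held 0.

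DR was also set against KD, which shares the DR mice with the first comparison and is therefore no independent repeat of it. For the 9 members it too is a description, and their counts are not read further. Of 19087 genes, 942 (4.94%) were called in edgeR's test, among them 2 of the 9 members, and 2257 genes (11.8%) did not overlap between the diets, again with 2 of the 9 members. Fbln5 was higher on DR by a log2 fold change of 1.24 (SE 0.12, 95% interval 0.93 to 1.54), a 2.36-fold higher level. Sparc was higher by 0.33 (SE 0.05, 0.20 to 0.45), a 1.25-fold higher level. Efemp1 was at -0.27 (SE 0.11) and Sparcl1 at -0.08 (SE 0.05), and neither was called. The 5 remaining genes lay between -0.17 for Smoc2 and 0.13 for Smoc1, the median over the 9 being 0.08 beside 0.00 over all genes.

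**Figure D3:**
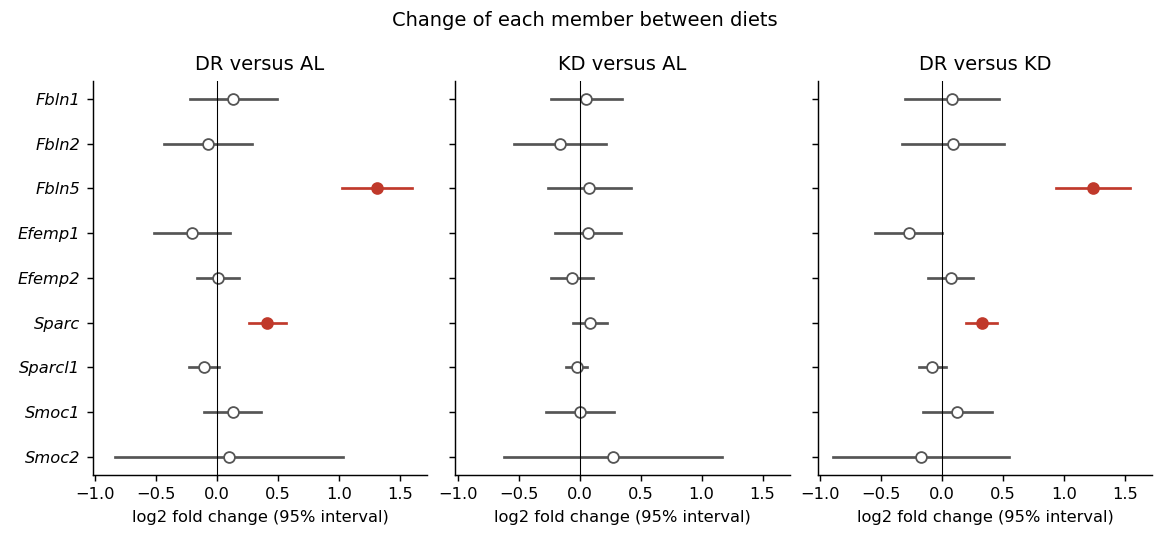
Log2 fold change of each gene (point) with its 95% interval (line) for DR against AL, KD against AL and DR against KD, fitted with edgeR. Filled red points have an adjusted p under 0.05 over all genes. Only Fbln5 and Sparc are filled, on DR against either other diet. Both are a description, since the genes were selected with the increase of Fbln5 in these DR mice known.

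Fbln5 and Sparc were also set against each other mouse by mouse. Among AL mice, replicate 1 was highest and replicate 3 lowest in both genes, and among KD mice replicate 4 was highest and replicate 3 lowest in both. Among DR mice the orders differed, since replicate 3 was highest in Fbln5 and replicate 4, the highest in Sparc, was lowest in Fbln5. With 4 mice per diet these orders are a description only.

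**Figure D4:**
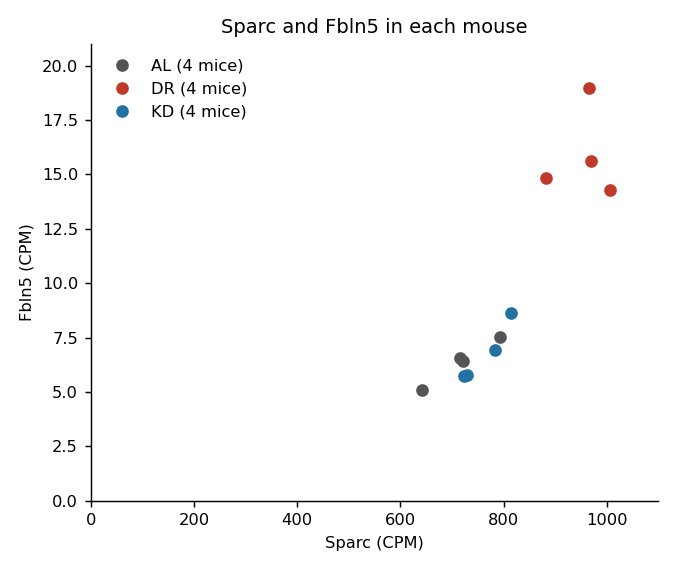
Fbln5 (vertical axis, CPM) against Sparc (horizontal axis, CPM) in each of the 12 mice, both from 0. The 4 DR mice lie apart from the other 8, at 883 to 1006 CPM of Sparc and 14.3 to 19.0 CPM of Fbln5, and AL and KD mice lie among each other.

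Genes whose levels followed each member most closely over the 12 mice were found by Pearson's r of log2 CPM among 15476 other genes averaging 1 CPM or more. The mice are 3 groups of 4 and the genes were read in the same libraries, so r is a description, and the value after removal of the diet means is given beside it. For Fbln5 the closest were Nbl1 (r = 0.975, and 0.828 within diets), which encodes a secreted BMP antagonist, Rab3b (0.957 and 0.635) and Fam213a (0.952 and 0.697). For Sparc they were Fam213a (0.977 and 0.934), Fam107a (0.970 and 0.896) and Selenbp1 (0.966 and 0.814), so Fam213a stood in both lists. For Sparcl1 they were Wasf3 (0.947 and 0.923), Dpy19l3 (0.945 and 0.892) and Afg3l2 (0.944 and 0.906). For the other members with at least 1 CPM the highest r was 0.924 for Fbln1 (Ptpn14, then Pbxip1 and F2r), 0.905 for Efemp1 (H2-K1, then Gm6505 and Stau1), 0.878 for Efemp2 (Ccdc97, then Cenps and Kcnj12), 0.854 for Fbln2 (Dhx9, then Pdpr and 4632415L05Rik) and 0.851 for Smoc1 (Nek8, then Mcm7 and F420014N23Rik). Smoc2 was below 1 CPM and was not matched.

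Relatives and partners of the members were read from 7 lists of 96 genes, 93 of them tested. The lists were chosen with earlier results of these data known, so calls and adjusted p-values within them are a description. Over all genes tested, 3.06% were called for DR against AL, 0% for KD against AL and 4.94% for DR against KD. Of the 7 other family genes tested, Fbln7, Hmcn1, Hmcn2, Fstl1 and the testicans Spock1, Spock2 and Spock3, none was called in a comparison. Spock2, a proteoglycan with a SPARC-like domain and the most abundant of them, was at 1220 ± 22.9 CPM on AL, 1198 ± 100.3 CPM on DR and 1236 ± 62.1 CPM on KD (SD, n = 4 each), and Spock1 was at 195, 199 and 197 CPM. The list had a median log2 fold change of -0.03 for DR against AL. The diet means of Spock2 and Spock1 differed by less than the largest SD within a diet.

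Among 19 tested genes of elastic fibres and microfibrils, 2 were called for DR against AL (beside 3.06% of all genes), 1 in each direction, and the list's median was -0.03. Emilin3, which encodes a microfibril-associated glycoprotein, rose from 8.32 ± 1.32 CPM on AL to 11.2 ± 0.975 CPM on DR (SD, n = 4 each; log2 fold change 0.43, SE 0.11, adjusted p = 0.0468). Adamtsl2, whose product binds fibrillin and latent TGF-beta binding protein, fell from 1.22 ± 0.352 to 0.566 ± 0.124 CPM (SD, n = 4 each; -1.10, SE 0.26, adjusted p = 0.0373). Both calls against AL were lost when single mice were left out, in 6 of 8 fits for Emilin3 and in 7 of 8 for Adamtsl2. Against KD both were called as well and stayed so in 8 of 8 such fits, with Emilin3 at 0.40 (SE 0.08, adjusted p = 0.0118) and Adamtsl2 at -1.35 (SE 0.23, adjusted p = 0.00249). Ltbp3, which averaged 146 CPM on AL and on DR, and Ltbp2, whose means were 102 and 98.5 CPM, were the most abundant of the list and were not called.

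Of 15 matrix ligands of fibulins and SPARC, 1 was called for DR against AL (beside 3.06% of all genes). The log2 fold change was below 0 in 14 of the 15, with a median of -0.06 beside 0.00 over all genes tested. The 14 included genes near 0, such as Fn1 (-0.012) and Col4a1 (-0.0028). The called gene was Nid1, which encodes nidogen, a basement membrane linker that fibulin-1 and fibulin-2 bind. It lay between 26.7 and 30.0 CPM on AL, between 17.6 and 22.1 CPM on DR and between 24.9 and 28.8 CPM on KD, so DR mice did not overlap with either other diet. Nid1 fell by 0.53 on the log2 scale against AL (SE 0.07, adjusted p = 0.00143) and was called against KD too (-0.47, SE 0.07, adjusted p = 0.00160). Brevican (Bcan, 182 CPM on AL and 175 CPM on DR) and Timp3 (89.9 and 83.1 CPM) were the most abundant ligands and were not called. The level of Timp3 is uncertain, since 21.3% of its exonic bases overlap with a gene on the other strand and the library was unstranded.

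The receptors of fibulin-5 were represented by 7 integrin chains, of which 1, Itgb3, was called (beside 3.06% of all genes for DR against AL). It was at 2.39 ± 0.265 CPM on AL, 1.28 ± 0.170 CPM on DR and 2.06 ± 0.425 CPM on KD (SD, n = 4 each). DR against AL gave -0.90 on the log2 scale (SE 0.16, adjusted p = 0.00942). Against KD it was called at -0.69 (SE 0.19, adjusted p = 0.0433), a call kept in 2 of 8 fits with a mouse left out. Itgav, the alpha chain that pairs with it, was at 56.3, 56.1 and 56.5 CPM on AL, DR and KD, and Itgb5 at 56.6, 59.2 and 56.4 CPM.

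The synapse-organising and signalling genes linked to the SPARC family showed few calls, beside 3.06% of all genes for DR against AL and 4.94% for DR against KD. Among 9 tested genes of astrocyte synapse organisation 0 were called, and Cacna2d1, a calcium channel subunit that serves as a receptor of thrombospondins, was at 77.6, 77.0 and 79.4 CPM on AL, DR and KD. Of 21 BMP signalling genes 0 were called, with Id2, a transcriptional target of the pathway, at 132, 129 and 132 CPM. Of 15 tested TGF-beta signalling genes 0 were called for DR against AL, where the list's median was -0.11 and 5 had an unadjusted p under 0.05. Against KD, 3 of the 15 were called: the co-receptor Eng (endoglin) at -0.47 (SE 0.07, adjusted p = 0.000750), Smad3 at -0.17 (SE 0.04, adjusted p = 0.0352) and Tgfb3 at 0.34 (SE 0.06, adjusted p = 0.00575). The value of Tgfb3 is uncertain because 12.4% of its exonic bases overlap with genes on the other strand and the library did not keep the strand, and Smad3 was called in 2 of 8 fits with a mouse left out. Over the 7 lists together, 4 of 93 tested genes (4.30%) were called for DR against AL, 0 for KD against AL and 7 (7.53%) for DR against KD.

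**Figure D5:**
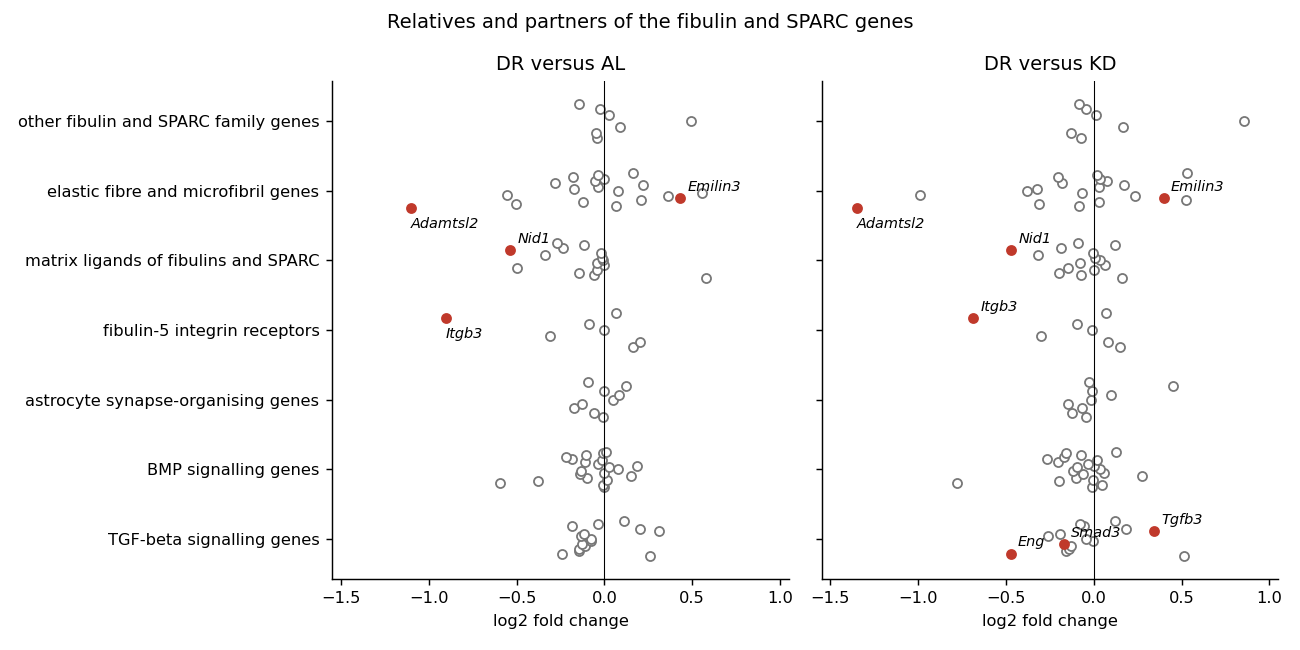
Log2 fold changes of the relatives and partners of the 9 genes, 1 point per gene, for DR against AL (left) and DR against KD (right), in 7 lists. Filled red points are genes with an adjusted p under 0.05 over all genes tested in edgeR. The few filled points fall on both sides of 0, and most lie to the left.

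Markers of the cell types that could supply these transcripts were read beside the members. The marker lists too were chosen with earlier results of these data known, so their calls are a description. The summed level of 13 markers of meningeal and vascular fibroblasts, cells known to express fibulins, ran from 76.2 to 97.9 CPM on AL, from 69.6 to 98.1 CPM on DR and from 79.8 to 97.9 CPM on KD, 0 of the 13 were called in any comparison, and each was detected in every library. For DR against AL, 6 of the 13 had a log2 fold change above 0 and 7 below 0, so opposite differences can cancel in the sum. The 12 endothelial markers summed to 234 to 274 CPM on AL, 241 to 250 CPM on DR and 254 to 269 CPM on KD, with Tie1 called lower on DR against both other diets and Kdr against KD (the calls against KD were kept in 7 and 6 of 8 fits with a mouse left out). For DR against AL, 9 of the 12 had a log2 fold change below 0 (median -0.08) and 3 above 0, among them Pecam1 at 0.28. For DR against KD, 9 were below 0 (median -0.16) and 3 above 0. The 11 mural cell markers summed to 214 to 227, 196 to 213 and 199 to 210 CPM. Of the 11, 9 had a log2 fold change below 0 for DR against AL (median -0.08) and 7 for DR against KD (median -0.03). For KD against AL, 10 of the 11 were below 0 (median -0.06). Des was above 0 for DR against AL and against KD and was called higher against KD, a call kept in 3 of 8 fits with a mouse left out. The 12 markers of astrocytes and Bergmann glia, glia known to express Sparc and Sparcl1, summed to 4231 to 4435 CPM on AL, 3895 to 4152 CPM on DR and 4174 to 4306 CPM on KD. Here DR mice lay below all others, Aqp4 and Hopx were called lower on DR against both other diets and Gja1 against AL, so the glial sum moved in the direction of Sparcl1 and opposite to that of Sparc. The value of Hopx is uncertain, since 27.2% of its exonic bases overlap with a gene on the other strand. The part of these cells in the levels of Sparc, Sparcl1 and Fbln5 was not tested.

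Markers of other cells moved too. The 8 markers of oligodendrocyte precursors summed to 541 to 551 CPM on AL, 435 to 476 CPM on DR and 495 to 536 CPM on KD. Ptprz1 made up most of this sum, with means of 395, 335 and 369 CPM. For DR against AL all 8 had a log2 fold change below 0 (median -0.27), from -0.04 for Pdgfra to -0.53 for Gpr17. Ptprz1 (against AL), Sox10 (against KD), Cspg5 and Gpr17 were called lower on DR (Cspg5 against AL in 2 of 8 fits with a mouse left out). The 8 Purkinje cell markers summed to 6816 to 7311, 5756 to 6619 and 6729 to 6922 CPM, with Car8 called lower on DR against both other diets, calls kept in 3 of 8 such fits against AL and 6 of 8 against KD. The 8 granule cell markers summed to 5280 to 5687, 5588 to 5833 and 5402 to 5617 CPM, with Cbln3 called higher on DR against KD (kept in 5 of 8 such fits). In that comparison 4 of the 8 granule cell markers had a log2 fold change above 0 and 4 below 0 (median 0.004). The 8 markers of molecular layer interneurons (2445 to 2593, 2382 to 2483 and 2377 to 2507 CPM) and the 10 of microglia (74.5 to 78.7, 68.7 to 74.0 and 72.7 to 84.1 CPM) held no call. The 10 choroid plexus markers summed to 27.2 to 29.1, 25.1 to 30.5 and 23.0 to 31.9 CPM. Otx2 and Clic6 made up most of the sum, with means of 13.6 and 8.56 CPM on AL, where Ttr averaged 0.756 CPM. Aqp1, Folr1, Prlr and Sostdc1 did not pass the filter on low counts and were not tested. For DR against KD, 4 of the 6 tested markers had a log2 fold change above 0 and 2 below 0. Ttr was called lower on DR against KD, a call lost in 7 of 8 fits with a mouse left out, with Ttr at up to 7.94 CPM among KD mice.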

How the data were processed

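Per the labels and the paper's methods, the authors trimmed paired-end reads with Trimmomatic 0.39, aligned them with STAR 2.7.0f to GRCm38.p6 and counted them per GENCODE gene with featureCounts of Subread 1.6.4. The deposited table holds raw counts of 54752 genes in 12 libraries, with coordinates and gene length. The library kit was unstranded. Symbols were matched for 54723 genes from a later GENCODE release.

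Every comparison was fitted over all genes of the 8 libraries concerned with edgeR 4.0.16 in R 4.3.3 (filterByExpr with minimum count 10 and minimum total 15, TMM, quasi-likelihood test, Benjamini-Hochberg adjustment, threshold 0.05) and without covariates. The authors also used edgeR and TMM, and describe their filter as removing genes with a mean of 10 CPM or less. The procedure was tested on simulated data. CPM used TMM factors over 12 libraries, log2 CPM a prior count of 2, and levels per kilobase the deposited gene length. The 95% intervals used a t distribution with 6 degrees of freedom. The mice are separate animals, and the labels give no litter, cage or batch.

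The 9 members and all gene lists were chosen with earlier results of these data known. Besides the 9 genes, the text names called genes of each list (at most the 4 with the lowest p per comparison), the 2 most abundant genes of lists that are not markers, and the 3 genes closest to each member by Pearson's r. Alternatives were DESeq2 1.42.0, its size factors in edgeR, scaling by library size only, no filter on low counts, a mean above 10 CPM, all 12 libraries in 1 fit, and each mouse left out in turn. Levels were described without a test. Some genes that this rule would name are not reported here.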

Additional observations from a re-analysis of the deposited data

Results flagged for a closer look

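An outlying mouse was sought with Dixon's test in 27 groups of 4 mice, the 9 genes on 3 diets, and 0 groups held one. Chance alone gives about 5% of groups.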

How the results depend on the processing

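Fbln5 and Sparc were past the threshold in all 14 alternatives for DR against AL and for DR against KD, and no other member was called in any alternative. The family was selected with the difference of Fbln5 in these DR mice known, so this describes the settings and does not support the difference. The log2 fold change of Fbln5 ranged from 1.22 to 1.41 against AL and from 1.14 to 1.38 against KD, and that of Sparc from 0.36 to 0.47 and from 0.30 to 0.36. Where a member was not called in a comparison, its sign changed in some cases when single mice were left out. Against AL, DR ranged from -0.17 to 0.017 for Fbln2, from -0.049 to 0.036 for Efemp2 and from -0.18 to 0.52 for Smoc2. KD against AL ranged from -0.065 to 0.17 for Fbln5, from -0.011 to 0.14 for Efemp1 and from -0.097 to 0.072 for Smoc1, and DR against KD from -0.032 to 0.23 for Fbln1, from -0.0035 to 0.24 for Fbln2 and from -0.45 to 0.018 for Smoc2.

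The number of genes called moved more. For DR against AL it was 583, 1012 with DESeq2, 1258 without the low-count filter and 235 (without DR replicate 3) to 712 with single mice left out. For KD against AL it was 0, 10 with DESeq2, 118 without the filter and 0 to 6, the 6 without AL replicate 1. For DR against KD it was 942, 1503 without the filter and 467 (without KD replicate 3) to 946. Listed genes called were 13 for DR against AL, 26 with DESeq2, 29 without the filter, 23 with all 12 libraries in 1 fit and 9 to 15 with single mice left out. For KD against AL they were 0 and 2 without the filter, and for DR against KD 19, 29 with DESeq2, 34 without the filter and 11 (without KD replicate 3) to 23. The cause of these differences was not tested. With scaling by library size only, 57.0% of the genes called for DR against AL were higher on DR, against 43.2% with TMM, and 62.1% against 50.8% for DR against KD.

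A mean above 10 CPM leaves out Fbln1, Fbln2, Efemp1, Smoc1 and Smoc2, and Fbln5 for KD against AL, and DESeq2 gave Smoc2 no adjusted p for DR against AL. No paired analysis was possible because the labels give the mice no replicate numbers, and the numbers used here follow accession order. Smoc2 rested on 9 to 44 reads per library.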
